A study of Mus musculus with 12 samples.

Results

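The 10 genes described here encode proteins of the smooth muscle contractile apparatus and were chosen by name. They are Acta2 and Actg2 (actins), Myh11 and Myl9 (myosin heavy and light chain), Tpm1 and Tpm2 (tropomyosins), Cnn1, Cald1 and Tagln (actin-binding proteins) and Des (an intermediate filament protein). All 10 were among the 24100 genes of the count table, and all 10 passed the filter on low counts that left 14263 genes.

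RNA came from mouse embryonic fibroblasts (MEFs) of 2 lines from different mothers, which the study's methods describe as immortalized with SV40. Each line had WT MEFs (Rtf2+/+ with Cre) and RTF2-deficient MEFs (Rtf2-/lox with Cre) from littermates. All 4 groups thus carried both SV40 and a Cre retrovirus, given 72 hrs before collection. Each group had 3 libraries, which the study calls technical replicates, so p-values measure the spread between these libraries and not that between embryos.

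Smooth muscle cells contract when myosin pulls on actin filaments that are built from smooth muscle actins and stabilized by tropomyosins. Fibroblasts that take on a contractile state, known as myofibroblasts, use many of the same genes, and Acta2 is the usual marker of that state. Many of these genes are controlled by SRF, a transcription factor that binds CArG boxes and is switched on by the cofactors myocardin (Myocd) and the MRTFs, which respond to the amount of free actin.

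Library totals lay between 39360167 and 44695002 counts. Levels are given as CPM, counts scaled to a common library size after TMM normalization. Rtf2, the targeted gene, had 44.8 to 57.8 CPM in the 6 WT libraries and 5.44 to 6.66 CPM in the 6 RTF2-deficient libraries, so every library followed its genotype label. Xist and Ddx3y gave WT line 2 the values of a male embryo, with Ddx3y at 91.8 to 107 CPM, whereas the other 9 libraries had at most 0.195 CPM. Sex therefore cannot be told apart from genotype in line 2, from line in the WT MEFs, or from the interaction of genotype and line. It also enters the comparison of genotype over both lines, where 3 of the 6 WT libraries and 0 of the 6 RTF2-deficient libraries had these values, and the 2 genotypes matched in this respect in line 1 alone. WT line 2 replicate 1 stood apart from its group, and values without it are given where it moves a result the text turns on.

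The CArG-like boxes near the starts of Acta2, Myl9 and Tpm1 are shown because each gene holds a pair of them, the element through which SRF acts on this gene family. Each line gives a box that matches at least 9 of the 10 CArG letters, in capitals, with 10 bases on either side, 5′ to 3′, from RefSeq's GRCm38.p6. The strand of the gene was searched, and a box that matches on it also matches on the other strand.
Acta2 (chr19:34255438-34255467, minus strand): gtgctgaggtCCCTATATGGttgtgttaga
Acta2 (chr19:34255388-34255417, minus strand): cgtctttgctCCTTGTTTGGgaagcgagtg
Myl9 (chr2:156775293-156775322, plus strand): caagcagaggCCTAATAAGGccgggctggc
Myl9 (chr2:156775355-156775384, plus strand): cattcttctgCCTTGTAAGGccgggcggcc
Tpm1 (chr9:67049415-67049444, minus strand): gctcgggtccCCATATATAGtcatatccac
Tpm1 (chr9:67049274-67049303, minus strand): acaagcttttCCAAAAAAGTattggctgtc

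The boxes of Acta2 begin 84 and 34 bases upstream of the start in the table of promoter sequences, those of Myl9 161 and 99 bases upstream, and those of Tpm1 221 and 80 bases upstream. These starts lie inside the first exons of the 3 genes in GENCODE M21, and both Acta2 boxes and the Tpm1 box at 80 bases fall within an annotated exon. The box of Myl9 at 161 bases, CCTAATAAGG, was the only one among the members to match all 10 letters. Promoter windows of 300 bases, 250 upstream and 50 downstream of the table's start, were on hand for 7 of the 10 members, with 8 windows in all. A box with at least 9 letters was present in 4 of the 8 windows (1 each of Acta2, Myl9, Tpm1 and Cald1), against 21.1% of all 32851 windows. A box with all 10 letters was present in 1 of the 8, against 1.63% of all windows. A match of letters is a description and no binding was measured. Promoters of Tagln, Myh11 and Actg2 were not analysed here.

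Levels of different genes were compared per kilobase (kb) of the longest coding transcript in GENCODE M21. The order by mean CPM per kb was Acta2 (2570), Tagln (1400), Tpm1 (694), Cald1 (590), Myl9 (547), Tpm2 (358), Actg2 (308), Cnn1 (143), Des (2.71) and Myh11 (1.50). Neighbours from Acta2 to Actg2 had overlapping ranges over the 12 libraries, as did Actg2 and Cnn1 and also Des and Myh11. Cnn1, with at least 122 CPM per kb, lay above Des, with at most 6.03 CPM per kb, in every library. The levels thus fell into 8 genes that were abundant and 2, the smooth muscle myosin heavy chain Myh11 and the muscle intermediate filament Des, that were far less abundant. The order among the 8 depends on the transcript length: per kb of the median coding transcript, Cald1 (1760) lay above Tpm1 (1220), and Actg2 (531) above Tpm2 (478). By mean CPM, Acta2 ranked 7 of the 14263 genes, Cald1 19, Tagln 25 and Tpm1 30, whereas Myh11 ranked 9314 and Des 9655. Counts of Myh11 were still 291 to 568 per library and those of Des 113 to 712, so both were measured well above the floor of 3 counts. Together the 10 genes took 0.878% to 1.73% of a library.

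**Figure D1:**
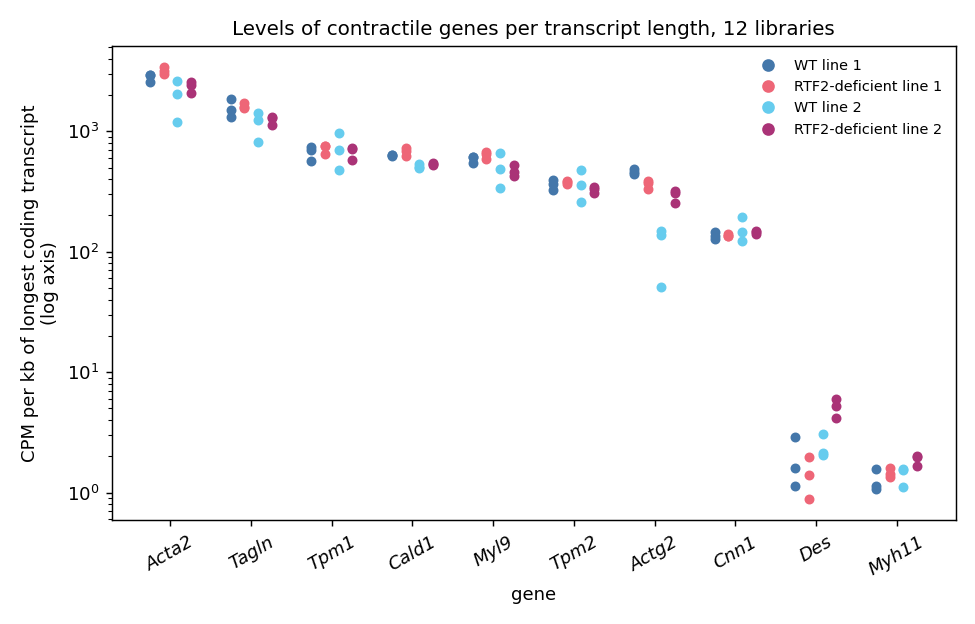
Level of each contractile gene in CPM per kb of the longest coding transcript (log axis), with 1 point for each of the 12 libraries, coloured by group. Of the genes shown, 8 have at least 51.2 CPM per kb in every library, while Des and Myh11 lie between 0.891 and 6.03 CPM per kb.

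The label of the cells was checked against markers. The fibroblast genes Col1a1 (4849 to 9494 CPM), Col1a2, Fn1 and Vim were abundant in all 12 libraries. The fibroblast proteoglycan genes Dcn and Lum were at 2.10 CPM or less, and Pdgfra had 3.49 to 21.7 CPM. The striated muscle enzyme gene Ckm and the T cell gene Cd3e had 0 counts in every library, which allows up to 0.0762 CPM in the shallowest, counting error only. In bulk RNA, fewer cells of a contractile type and less RNA of these genes per cell cannot be told apart.

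None of the 10 genes was called between RTF2-deficient and WT MEFs over both lines. The test was edgeR's quasi-likelihood test with a term for line, and the call was a Benjamini-Hochberg adjusted p under 0.05 over all 14263 genes. It called 0 of the 10 members and 13.2% of all genes. At an unadjusted p under 0.05 it marked 1 member, Myh11, and 28.5% of all genes, and DESeq2 called 0 members. The median log2 fold change of the 10 genes was 0.085 and that of all genes was 0.0019. Taken without sign, the median change was 0.085 over the members and 0.15 over all genes. For all 10, the WT and RTF2-deficient libraries overlapped, whereas 5.97% of all genes had no overlap between genotypes.

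**Figure D2:**
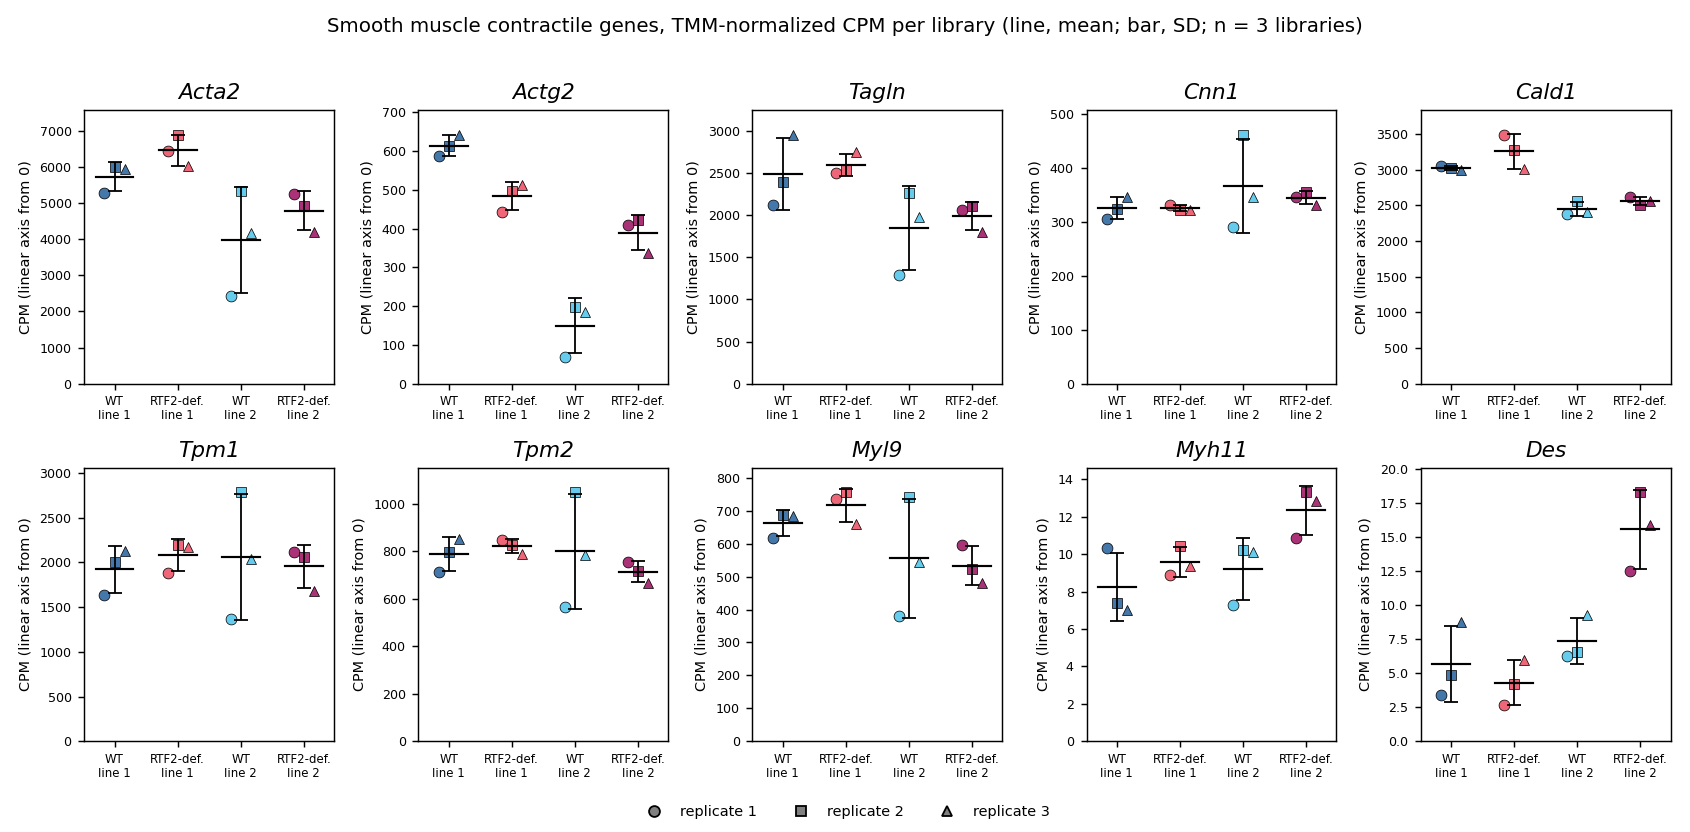
TMM-normalized CPM of each contractile gene in the 12 libraries by group, on linear axes that start at 0, with points shaped by replicate, the line at the mean and the bar at the SD of 3 libraries. Actg2 was 68.3 to 197 CPM in WT line 2 and 338 to 642 CPM in the other groups, Des was highest in RTF2-deficient line 2, and WT line 2 replicate 1 (light blue circle) lay at the bottom of its group for every gene.

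Among the actins, Acta2 (Entrez Gene 11475, chromosome 19 from 34240336 to 34255585 in GRCm38.p6), the smooth muscle alpha actin, was the most abundant member. It had 5266, 5985 and 5941 CPM in WT line 1 and 6446, 6884 and 6026 CPM in RTF2-deficient line 1. In line 2 it had 2424, 5341 and 4169 CPM in WT and 5243, 4921 and 4198 CPM in RTF2-deficient MEFs. The RTF2-deficient libraries were thus above all WT libraries in line 1 and overlapped with them in line 2. Its log2 fold change over both lines was 0.22 (standard error 0.16, adjusted p = 0.390), with a 95% interval from -0.13 to 0.57. Without WT line 2 replicate 1 it was 0.11 over both lines (adjusted p = 0.560) and 0.016 in line 2 (adjusted p = 0.970). With each library left out in turn it ranged from 0.11 to 0.33 over both lines and from 0.016 to 0.54 in line 2, and was not called.

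Actg2 (Entrez Gene 11468, chromosome 6 from 83512909 to 83536251), the smooth muscle gamma actin of gut and bladder wall, varied most between the groups. It had 589, 613 and 642 CPM in WT line 1 and 444, 498 and 513 CPM in RTF2-deficient line 1. In WT line 2 it had 68.3, 197 and 185 CPM, and in RTF2-deficient line 2 it had 410, 423 and 338 CPM. All RTF2-deficient libraries were below all WT libraries in line 1 and above all of them in line 2. WT line 2 was the low group, and its lowest library still held 3143 counts.

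In line 2, Actg2 was 2.60-fold higher in RTF2-deficient than in WT MEFs, or 1.38 on the log2 scale (standard error 0.30, adjusted p = 0.0127). It was the only member called there, where 12.5% of all genes were called and 5.42% were called higher. Without WT line 2 replicate 1 the log2 fold change was 1.04 (adjusted p = 0.000662). The call was lost without RTF2-deficient line 2 replicate 2 (adjusted p = 0.0503) and in a fit of only the 6 line 2 libraries (adjusted p = 0.0768), both with a log2 fold change above 1.

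In line 1, the log2 fold change of Actg2 was -0.34 (standard error 0.29, adjusted p = 0.711) in the layout of 4 groups. None of the 10 members was called there, against 3.20% of all genes. Libraries of line 1 with the same replicate number deviated together, so line 1 was also fitted alone with the replicate number as a block. In that paired fit Actg2 fell by 0.35 on the log2 scale (standard error 0.037, adjusted p = 0.000346), with RTF2-deficient to WT ratios of 0.753, 0.812 and 0.799 in the 3 pairs. The paired fit called 29.1% of all genes and 4 of the 10 members. Besides Actg2 these were Des (-0.38, adjusted p = 0.0347), Acta2 (0.17, adjusted p = 0.0340) and Tpm1 (0.12, adjusted p = 0.0499). Acta2 and Tpm1 rose and Actg2 and Des fell, each in all 3 pairs, and the paired fit was chosen after seeing the data.

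The difference of the Actg2 effect between lines, the interaction, was 1.72 on the log2 scale (standard error 0.42), a value from which sex cannot be told apart. It was not called in the edgeR fit (adjusted p = 0.0946), where 0 of the 10 members and 1.29% of all genes were called. It was called by DESeq2 (1.73, adjusted p = 0.00178) and by edgeR without WT line 2 replicate 1 (1.38, adjusted p = 0.00396). Des was next among the members at 1.49 (standard error 0.50, adjusted p = 0.295). At an unadjusted p under 0.05, 2 members and 8.49% of all genes passed.

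Actg2 also differed between the WT lines. WT line 2 was 4.10-fold lower than WT line 1, or -2.03 on the log2 scale (standard error 0.30, adjusted p = 0.00127), and -1.70 (adjusted p = 2.22e-05) without WT line 2 replicate 1. Actg2 was the only member called between the WT lines, where 14% of all genes were called and 7.31% were called lower. Between the RTF2-deficient lines its log2 fold change was -0.31 (standard error 0.29, adjusted p = 0.735). WT line 2 shares its libraries between this comparison and that of genotype in line 2, and in both, line or genotype cannot be told apart from sex.

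Because smooth muscle actins are close in sequence, reads of Actg2 could be counted for another actin. The most alike stretch of 75 coding bases, the read length, between Actg2 and Acta2 is shown for that reason, with capitals at the letters that differ.
Actg2, from base 913 of the coding sequence: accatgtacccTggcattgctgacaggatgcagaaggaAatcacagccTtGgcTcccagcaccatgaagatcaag
Acta2, from base 916 of the coding sequence: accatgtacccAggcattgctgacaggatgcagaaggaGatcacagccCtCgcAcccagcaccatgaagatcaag
They differ at 5 of 75 bases. The nearest stretches of Actg2 in the striated muscle actins Acta1 and Actc1 differed at 3 bases. The nearest stretch of Acta2 in Actg1, an actin gene with 2956 to 6529 CPM, also differed at 3 bases. No stretch of 75 bases in the longest coding transcript of any member occurred unchanged in a transcript of another gene in GENCODE M21. Exon bases of Tagln lay under exons on the opposite strand for 67.9% of their length, and those of Des for 5.86%. Whether counting used strand is not given in the sources used here, so the values of Tagln could hold reads of its neighbours.

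**Figure D3:**
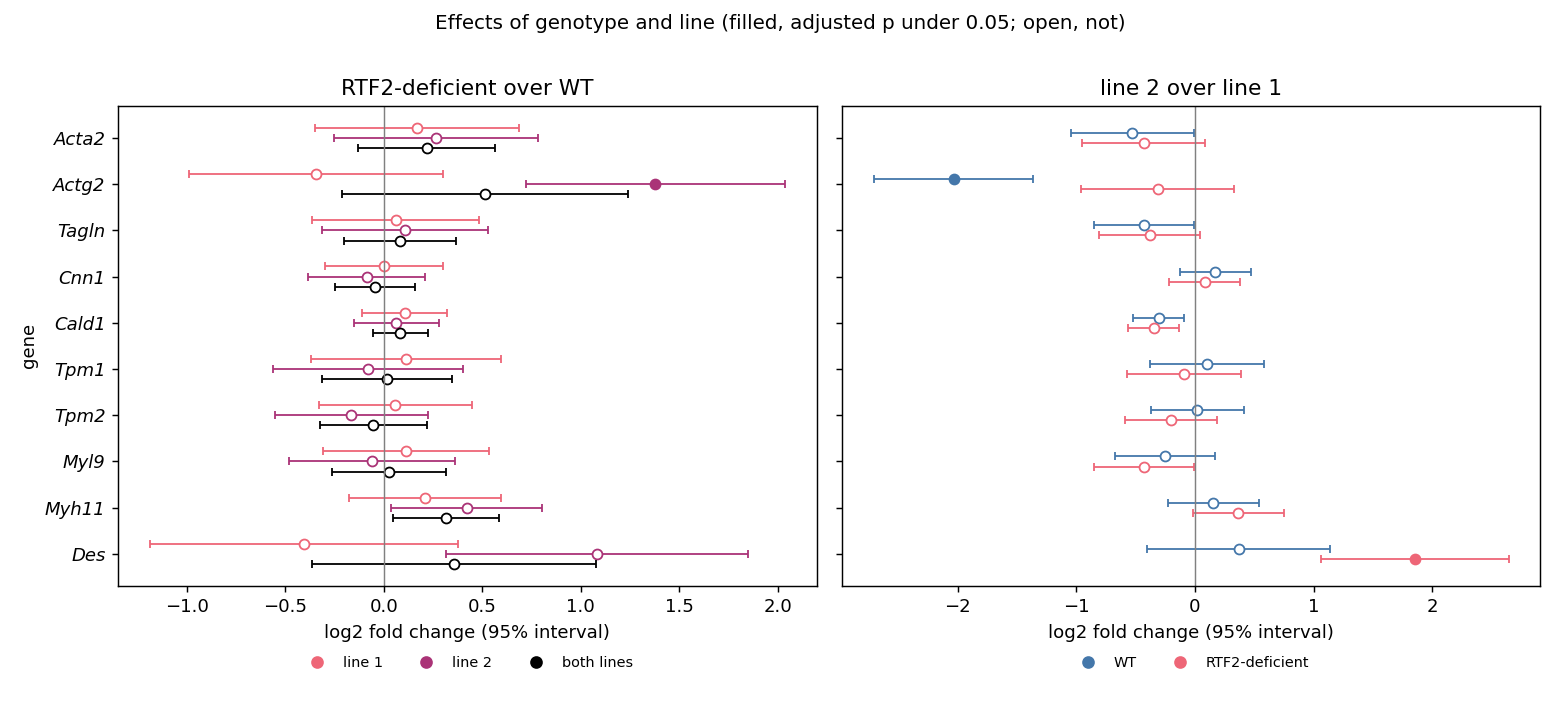
Log2 fold change of each contractile gene with its 95% interval, RTF2-deficient over WT on the left (line 1, line 2 and both lines) and line 2 over line 1 on the right (WT and RTF2-deficient), from edgeR. Filled points, with an adjusted p under 0.05, are Actg2 in line 2 (1.38), Actg2 between WT lines (-2.03) and Des between RTF2-deficient lines (1.86), and all others are open.

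Des (Entrez Gene 13346, chromosome 1 from 75360292 to 75368579) encodes desmin, the filament that links contractile units in muscle. It had 3.42, 4.88 and 8.76 CPM in WT line 1 and 2.70, 4.22 and 5.97 CPM in RTF2-deficient line 1. Its levels were 6.23, 6.53 and 9.28 CPM in WT line 2 and 12.5, 18.3 and 15.9 CPM in RTF2-deficient line 2. RTF2-deficient line 2 stood above all other groups. Between the RTF2-deficient lines Des was 3.62-fold higher in line 2 (log2 fold change 1.86, standard error 0.36, adjusted p = 0.0245), the only member called of 1.94% of all genes, 1.09% higher. That call was lost without RTF2-deficient line 1 replicate 1 or replicate 2 and without RTF2-deficient line 2 replicate 2 or replicate 3, with log2 fold changes of 1.60 to 1.84 and adjusted p of up to 0.108.

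Within line 2, Des differed by 1.08 on the log2 scale between genotypes (standard error 0.35, adjusted p = 0.0677). It was called by DESeq2 (adjusted p = 0.0137) and in a fit of the 6 libraries alone (adjusted p = 0.0303). Without WT line 2 replicate 1 it was 0.98 by edgeR and not called (adjusted p = 0.152). With each library left out in turn it ranged from 0.96 to 1.29. It was called in 2 of these edgeR fits, and adjusted p reached 0.211. Over both lines it was 0.36 (standard error 0.33, adjusted p = 0.503).

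Myh11 (Entrez Gene 17880, chromosome 16 from 14194527 to 14292188), the myosin heavy chain of smooth muscle, had 10.3, 7.41 and 7.02 CPM in WT line 1 and 8.86, 10.4 and 9.39 CPM in RTF2-deficient line 1. It had 7.27, 10.2 and 10.1 CPM in WT line 2 and 10.8, 13.3 and 12.8 CPM in RTF2-deficient line 2. RTF2-deficient libraries lay above all WT libraries in line 2 and overlapped with them in line 1. The log2 fold change over both lines was 0.32 (standard error 0.12, adjusted p = 0.114), the smallest p of the members. Without WT line 1 replicate 1 it was 0.42 and was called (adjusted p = 0.0260). The regulatory light chain gene Myl9 had 380 to 755 CPM over all libraries with 0.03 on the log2 scale (standard error 0.13, adjusted p = 0.919).

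The tropomyosins, which lie along actin filaments, did not pass the test. Tpm1 had 1373 to 2783 CPM with 0.02 on the log2 scale between genotypes (standard error 0.15, adjusted p = 0.953). Tpm2 had 563 to 1047 CPM with -0.05 on the log2 scale (standard error 0.12, adjusted p = 0.816). For both, the lowest and the highest of the 12 libraries were replicates 1 and 2 of WT line 2.

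The actin-binding proteins were also not called. Tagln (transgelin) had 2113, 2391 and 2951 CPM in WT line 1, 2496, 2536 and 2742 CPM in RTF2-deficient line 1, 1293, 2265 and 1972 CPM in WT line 2 and 2061, 2102 and 1799 CPM in RTF2-deficient line 2. Its log2 fold change was 0.08 (standard error 0.13, adjusted p = 0.705). Cnn1, the basic calponin that binds actin and slows myosin, had 290 to 461 CPM and a log2 fold change of -0.04, with a 95% interval from -0.24 to 0.16.

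Cald1, caldesmon, which holds myosin off actin until calcium signals arrive, was the steadiest member. It had 3045, 3021 and 3001 CPM in WT line 1 and 3488, 3274 and 3004 CPM in RTF2-deficient line 1. In line 2 it had 2374, 2557 and 2411 CPM in WT and 2611, 2502 and 2561 CPM in RTF2-deficient MEFs. All 6 libraries of line 2 lay below all 6 of line 1. Its log2 fold change of line 2 over line 1 was -0.30 in WT (adjusted p = 0.0623) and -0.35 in RTF2-deficient MEFs (adjusted p = 0.119), both uncalled by edgeR and called by DESeq2 (adjusted p = 2.52e-05 and 6.06e-06). Between genotypes it was 0.09 (standard error 0.065, adjusted p = 0.411).

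Libraries of line 1 and line 2 did not overlap for 9 of the 10 members in RTF2-deficient MEFs, against 19.8% of all genes. Acta2, Tagln, Myl9, Actg2, Tpm2 and Cald1 were lower in line 2, and Cnn1, Myh11 and Des were higher, but among these edgeR called only Des. For Cnn1 the lines nearly touched, at most 331.29 CPM in line 1 and at least 331.4 CPM in line 2. Its log2 fold change was 0.083 (adjusted p = 0.867). In WT MEFs, libraries of the lines did not overlap for 2 members, Actg2 and Cald1, against 30.2% of all genes. Between genotypes there was no overlap for Acta2 and Actg2 in line 1 (21.1% of all genes) and for Myh11, Actg2 and Des in line 2 (29.5% of all genes).

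The median SD within groups on the log2 scale was 0.258 over the 10 members and 0.136 over the 9281 genes with a mean of at least 10 CPM, a mean that Myh11 and Des do not reach. Without WT line 2 replicate 1 these medians were 0.155 and 0.127, and the median was 0.147 over the 8 members of at least 10 CPM, so most of the difference rests on that library. With all 12 libraries the SD ranged from 0.063 for Cald1 to 0.489 for Des. WT line 2 replicate 1 held the lowest value of its group for all 10 members, as it did for 44.8% of the 9281 genes. Relative to the mean of the other 2 libraries of the group it had 35.7% for Actg2, 51% for Acta2, 57% for Tpm1, 59.1% for Myl9, 61% for Tagln and 61.5% for Tpm2. Cald1 had 95.6%, and the median of the 9281 genes was 97.9%.

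The same library had the highest interferon score, 9.20, the median log2 CPM of 10 interferon-stimulated genes. In WT line 2 the interferon-induced gene Ifit1 had 902, 92.6 and 255 CPM, and Isg15, a ubiquitin-like interferon-induced gene, had 692, 99.2 and 296 CPM. The interferon score was 4.88 to 9.20 in WT line 2, the low group for Actg2, and 1.37 to 7.44 in RTF2-deficient line 2. It was 0.366 to 3.97 in WT line 1 and -0.131 to 1.87 in RTF2-deficient line 1. A score of the members, the mean of their centred log2 CPM, was lowest in the library with the highest interferon score in all 4 groups. Of the other 2 libraries of WT line 2, the one with the higher interferon score (7.02) had the lower score of the members (-0.12, against 0.081 at an interferon score of 4.88). Of single members, Tagln, Actg2 and Tpm1 had their lowest value there in all 4 groups, which is 30% of the members against 20.7% of the 9281 genes. The part of the interferon level in these values was not tested.

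**Figure D4:**
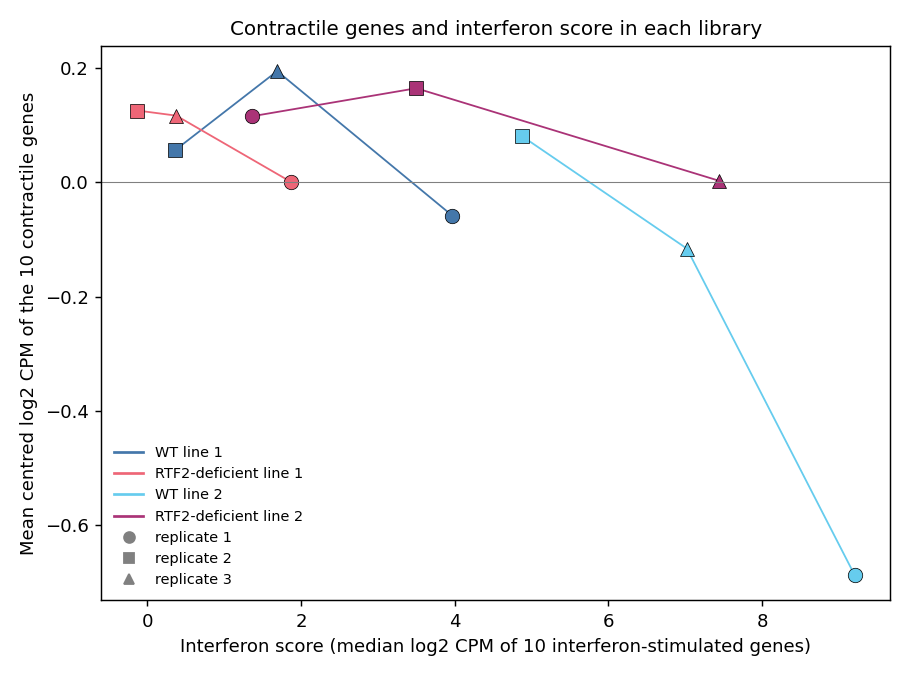
Mean centred log2 CPM of the 10 contractile genes against the interferon score of each of the 12 libraries, with lines joining the 3 libraries of a group and shapes marking replicates. In each group the library farthest to the right is the lowest, and WT line 2 replicate 1 has an interferon score of 9.20 and a contractile score of -0.69.

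After group means were subtracted, Pearson's r over the 12 libraries had a median of 0.549 over the 45 pairs of members, and 42 pairs were above 0. Acta2 with Myl9 reached 0.98, and Tpm2 with Myl9 also 0.98. Cald1, Myh11 and Des followed the other members least, with r of 0.164, 0.312 and 0.188 between each and the mean of the rest. Without WT line 2 replicate 1 the median was 0.433 and 28 pairs were above 0, so part of the likeness rests on that library. These values share libraries and are a description.

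**Figure D5:**
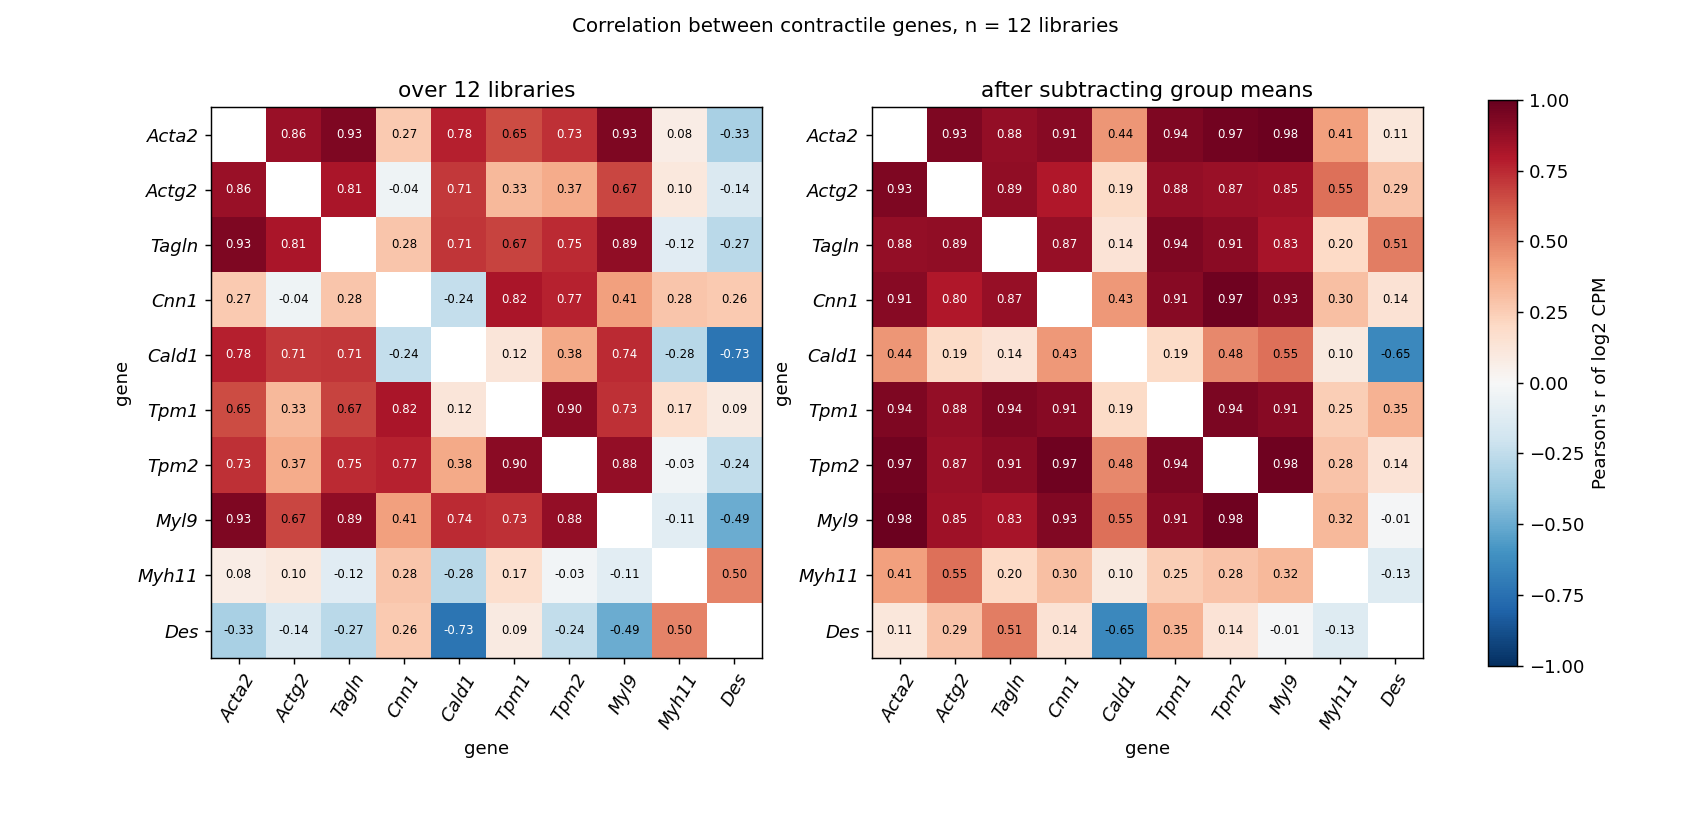
Pearson's r of log2 CPM for each pair of contractile genes over 12 libraries, left, and after group means were subtracted, right, on a colour scale from -1 to 1. On the right, Acta2, Actg2, Tagln, Cnn1, Tpm1, Tpm2 and Myl9 form a block of red with values of at least 0.80, and Cald1, Myh11 and Des are paler.

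Among 9210 other genes with a mean of at least 10 CPM, those most like the members' score over the 12 libraries were Banf1 (Pearson's r 0.968), Rap1a (0.959), Cep20 (0.958), Commd2 (0.955) and Gng10 (0.950). After group means were subtracted they were Prss23 (0.989), Tmem123 (0.971), Cenpa (0.971), Nuf2 (0.970) and Tmsb4x (0.969). Without WT line 2 replicate 1 the 5 most alike genes over the libraries included 2 of the same, Banf1 and Commd2, and those after subtraction of group means included 0 of the same, so these names depend on that library. None of the 10 genes named with all libraries was called between genotypes, with adjusted p from 0.204 to 0.980.

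Of the 7 genes for SRF and its cofactors, 1 rose over both lines and 0 fell, where 13.2% of all genes were called. Myocd, the cofactor that is strongest in smooth muscle, had 1.81 to 5.11 CPM in WT and 3.23 to 6.54 CPM in RTF2-deficient libraries, and rose by 0.54 (standard error 0.15, adjusted p = 0.0343). In line 2 its log2 fold change was 0.78 (adjusted p = 0.0222), and WT line 2 was below WT line 1 by -1.01 (adjusted p = 0.00547) and had the lowest mean of the 4 groups, as for Actg2. The values of Myocd without WT line 2 replicate 1 were 0.54 over both lines, no longer called (adjusted p = 0.0525), and 0.87 in line 2 (adjusted p = 0.0323). The log2 fold changes of the others were -0.01 for Srf, -0.10 for Mrtfa, 0.25 for Mrtfb (adjusted p = 0.0773), 0.01 for Elk1, 0.07 for Elk3 and 0.10 for Elk4.

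Of 20 other genes of the contractile apparatus and its regulators, 2 fell over both lines and 0 rose, against 13.2% of all genes called. Mylk, the kinase that phosphorylates the myosin light chain to start contraction, fell by 0.64 (standard error 0.16, adjusted p = 0.0204). It was also the list's gene with the greatest difference between lines, higher in line 2 by 1.72 in WT (adjusted p = 0.000538) and by 1.99 in RTF2-deficient MEFs (adjusted p = 0.00136). Ppp1r14a, an inhibitor of myosin phosphatase, fell by 0.74 (standard error 0.15, adjusted p = 0.00861) and had 55 to 172 counts per library. The median over the 20 genes was 0.104 against 0.0019 over all genes.

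Of 14 other genes known as SRF or MRTF targets, 3 rose and 0 fell over both lines, with 13.2% of all genes called. Ankrd1, a stretch-responsive nuclear cofactor, rose by 1.09 (standard error 0.29, adjusted p = 0.0290), Tes, a focal adhesion protein gene, rose by 0.85 (adjusted p = 0.0249), and Ccn2, a matrix-associated growth factor gene, rose by 0.44 (adjusted p = 0.0322). In line 2 Ankrd1 had 115 ± 33.3 CPM (SD, n = 3) in WT and 410 ± 89.1 CPM (SD, n = 3) in RTF2-deficient MEFs, against 417 ± 119 and 534 ± 90.1 CPM in line 1. WT line 2 was again the low group. For Ankrd1 the log2 fold change in line 2 without WT line 2 replicate 1 was 1.62 (adjusted p = 0.00421), against 1.83 with it (adjusted p = 0.00181). Of 8 genes of smooth muscle fate tested, 1 rose, the transcription factor Gata6 (0.62, adjusted p = 0.00649). The number called in these 4 lists was 7 of 49, or 14.3%, near the 13.2% of all genes. It was 2 without RTF2-deficient line 2 replicate 1 or replicate 2 and 4 without WT line 2 replicate 2. In line 1, where the genotypes matched in sex, 0 of the 7 genes were called, with log2 fold changes from -0.78 for Mylk to 0.39 for Ccn2 and adjusted p from 0.112 to 0.651, and sex cannot be told apart from genotype in the calls over both lines.

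Of markers of other cell types, the 5 pericyte markers summed to 217 to 514 CPM per library, most of it Cspg4 (183 to 388 CPM), a proteoglycan gene, and the striated muscle, endothelial, epithelial and immune lists were lower. Of the 16 striated muscle markers 5 could be tested and 1 was called, where 13.2% of all genes were called. Tnnt2, cardiac troponin T, rose by 1.32 (adjusted p = 0.0163), and the other 4 had log2 fold changes below 0 and were not called (Myod1 -2.17, Acta1 -0.15, Tnnt3 -0.12 and Actn2 -0.04). By line, Tnnt2 had 0.57 in line 1 (adjusted p = 0.441) and 2.12 in line 2 (adjusted p = 0.00155), where sex differed too. The striated list summed to 19.2 to 43.9 CPM per library, against 8778 to 17303 CPM for the 10 contractile genes. Endothelial markers summed to at most 21.5 CPM, epithelial markers to at most 13.1 CPM and immune markers to at most 9.66 CPM. Of 2 endothelial markers tested, 1 was called, the receptor gene Kdr (0.58, adjusted p = 0.0492), and Tek had -0.03. Of 4 epithelial markers tested, 1 was called, the keratin gene Krt18 (0.74, adjusted p = 0.0381), and Krt8 had 0.90, Cdh1 -0.18 and Epcam -0.34. Neither Kdr (adjusted p = 0.0803) nor Krt18 (adjusted p = 0.0570) was called without WT line 2 replicate 1. In the remaining lists, 0 of 10 fibroblast markers, 0 of 5 pericyte markers and 0 of 2 immune markers tested were called. The 10 interferon-stimulated genes had log2 fold changes from -3.04 to -1.16, and 0 were called. These counts come from 2 to 10 genes a list and stand against 13.2% of all genes called, so nothing is read from them. The part of these cell types in the levels of the contractile genes was not tested.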

How the data were processed

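RNA from 12 MEF libraries in 4 groups was sequenced as single-end reads of 75 bases. Per the study's methods, reads were quantified on UCSC mm10 transcripts by Salmon and summarized by tximport, whereas HTSeq with mm10 stands in the submitters' processing notes, so the counting tool is not settled. The file deposited by the authors holds whole-number counts for each gene, not normalized, by Entrez Gene number. Neither poly(A) selection nor strand use is stated there. RefSeq's GRCm38.p6 supplied symbols and positions for 24045 of 24100 identifiers.

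The counts were tested in R 4.3.3 with edgeR 4.0.16 (filterByExpr with the 4 groups, TMM, glmQLFit, glmQLFTest), using all 12 libraries and terms for line and genotype. For effects within a line, the interaction and the differences between lines, contrasts were taken from a model with 1 mean per group. P-values were adjusted by Benjamini-Hochberg over all genes tested, and calls needed an adjusted p under 0.05. Standard errors were derived from each coefficient and its F statistic. CPM are TMM-normalized, and log2 CPM used a prior count of 2. Library totals had a median of 42066276 counts, and the floor of 3 counts covers counting error only. Chi-square per degree of freedom between libraries of a group was 20.5 to 180, beyond sampling noise, so all 12 were kept.

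The 10 members, the other gene lists and the rule for names were chosen with earlier results of these data known. The rule names all members and Rtf2, all of SRF and its cofactors, at most 3 genes per direction of each other list among those called, the 5 genes most like the members by each measure, Xist, Ddx3y, Ifit1 and Isg15. Other genes of the lists that are named without a call fall outside this rule and were chosen after their values were seen. Whether replicate numbers pair libraries was read from the correlation of their deviations from group means. In line 1 the same-numbered pairs had r of 0.842, 0.768 and 0.804, and in line 2 -0.762, 0.216 and -0.400, so only line 1 was treated as paired. In line 2, r was 0.755 for WT replicate 1 with RTF2-deficient replicate 3, 0.794 for 2 with 1 and 0.639 for 3 with 2. The other differently numbered pairs of line 2 lay between -0.661 and 0.130. Pairs of unlike number were not used.

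The alternatives tried were upper-quartile and RLE normalization, no filter, 1 CPM in 6 libraries, DESeq2 1.42.0, a replicate block, no line term, the mean of both lines, summed triplicates, only the groups compared and each library left out. The paired fit of line 1 alone and the correlations, spread, most alike genes and called genes of other lists without WT line 2 replicate 1 were added after seeing the data. On simulated counts with known changes, the test of genotype over both lines (14113 genes) found 56% of genes set to change by 0.5 and 78% of those set to 1 on the log2 scale. In line 2 (14099 genes) it found 22% and 64%.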

Additional observations from a re-analysis of the deposited data

Results flagged for a closer look

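The 10 contractile genes and Rtf2, taken over the 6 libraries of each genotype, gave 22 sets, and Dixon's test at the 95% level asked whether the highest or lowest library lay far from the rest. For sets drawn from a single population, chance alone would mark about 1 of 22, and 1 was marked. Each set pools both lines, whose differences widen its range, so that rate need not apply. WT line 2 replicate 1, which stood apart from its group, was not marked. In WT line 2 replicate 2, Cnn1 reached 460.9 CPM, while the next WT library had 346.4 CPM, so this gap took up 0.669 of the range over the 6 WT libraries. By edgeR's test of the interaction, no member had a called difference between the lines in the effect of genotype.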

How the results depend on the processing

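Of the results on counts of contractile genes called, 38 values under alternatives other than single libraries left out stayed close to the reported count, and 6 moved. DESeq2 called 2 members in line 2 (Actg2 and Des), 1 in the interaction (Actg2), 2 between WT lines (Actg2 and Cald1) and 2 between RTF2-deficient lines (Des and Cald1). With the replicate block over all libraries, 2 members were called in line 2, with Des at 1.10 (adjusted p = 0.0113). That number pairs libraries in line 1 only, where the paired fit of line 1 alone called 4 members, and over both lines the block called 0 members, as without it. With a library left out, the number called ranged from 0 to 1 over both lines (1 without WT line 1 replicate 1), was 0 in line 1, ranged from 0 to 2 in line 2 (0 without RTF2-deficient line 2 replicate 2, and 2 without WT line 1 replicate 1 or replicate 3), from 0 to 1 in the interaction (1 without WT line 2 replicate 1), from 1 to 3 between WT lines (3 without WT line 2 replicate 2, with Acta2 at -0.80 and Myl9 at -0.52) and from 0 to 1 between RTF2-deficient lines. With the triplicates summed, 0 of all genes were called and 2894 had an unadjusted p under 0.05, so that fit of 4 samples says nothing about the members. With only the groups compared, Actg2 in line 2 lost its call (adjusted p = 0.0768) at a log2 fold change of 1.38. Calls among the other lists over both lines numbered 7, and 11 with DESeq2, 2 without the line term and 2 to 9 with a library left out. Genes called in the whole table also moved under DESeq2 in line 1 (456 to 861), in the interaction (184 to 409) and between RTF2-deficient lines (276 to 702), without the line term (1878 to 1227), and with only the groups compared in line 2 (1776 to 969), between WT lines (1998 to 1258) and between RTF2-deficient lines (276 to 177). With a library left out they fell to as few as 1158 over both lines, 192 in line 1, 813 in line 2, 66 in the interaction, 1260 between WT lines and 119 between RTF2-deficient lines.

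No called value changed direction. Values that were not called crossed 0 in 37 cases, 36 of them with a library left out. Tpm2 between WT lines was -0.002 with no filter and -0.22 to 0.21 with a library left out. Over both lines the ranges with a library left out were -0.066 to 0.15 for Tpm1, -0.001 to 0.16 for Tagln, -0.053 to 0.15 for Myl9, -0.096 to 0.052 for Cnn1 and -0.12 to 0.069 for Tpm2. In line 1 they were -0.035 to 0.20 for Tagln, -0.033 to 0.046 for Cnn1 and -0.72 to 0.051 for Des. In line 2 they were -0.086 to 0.28 for Tagln, -0.22 to 0.12 for Cnn1, -0.27 to 0.21 for Myl9, -0.30 to 0.20 for Tpm1 and -0.36 to 0.081 for Tpm2. In the interaction they were -0.15 to 0.23 for Tagln, -0.16 to 0.37 for Acta2, -0.23 to 0.11 for Cnn1, -0.38 to 0.094 for Myl9, -0.42 to 0.083 for Tpm1, -0.42 to 0.022 for Tpm2 and -0.082 to 0.017 for Cald1. Between WT lines they were -0.17 to 0.32 for Tpm1 and -0.031 to 0.30 for Cnn1. The cause was not tested. The study calls the 3 libraries of a group technical replicates, and each line has 1 source per genotype. Differences between embryos thus cannot be told apart from those of genotype within a line. The abundant members had at least 3143 counts in every library, and the part of depth was not tested.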
